A study of Mus musculus with 24 samples.

Results

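The hepatoblast transcription factors are 8 genes, *Hnf4a*, *Foxa1*, *Foxa2*, *Foxa3*, *Cebpa*, *Onecut1*, *Prox1* and *Tbx3*, picked by name from the 25361 genes of the expression table as regulators of the early liver. They were set against hepatic target genes, in libraries from E12.5 mouse liver (embryonic day 12.5) that had been split into CD146+ liver sinusoidal endothelial cells (LSECs) and the remaining non-EC liver cells. RNA sequencing of both fractions covered 4 genotypes with 3 libraries each, 24 libraries in all, and each library of a fraction came from a separate embryo. Expression is given in TPM (length-normalised transcript abundance), which is scaled to the same total in every library and to transcript length, so the number of reads behind a value is unknown. Controls lacked *VE-cadherin-Cre* and carried floxed alleles of *Brg1* and *Chd4*. The mutants carried *VE-cadherin-Cre*, and were *Brg1* fl/+;*Chd4* fl/fl (*Chd4-ECko*, deleted for *Chd4* and heterozygous for *Brg1*), *Brg1* fl/fl;*Chd4* fl/+ (*Brg1-ECko*, deleted for *Brg1* and heterozygous for *Chd4*) or *Brg1* fl/fl;*Chd4* fl/fl (*Brg1/Chd4-ECdko*). CHD4 and BRG1 are ATP-dependent chromatin remodelers. VE-cadherin-Cre deletes in endothelial cells and also in some blood cells, so hepatoblasts are not a target of the deletion, the background was mixed, and digestion was done with transcription inhibitors.

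HNF4A is a nuclear receptor that maintains the hepatocyte program, and the FOXA proteins are pioneer factors that open liver enhancers from the foregut stage on. C/EBP alpha drives hepatocyte metabolic genes, ONECUT1 (HNF6) acts in hepatoblasts and in the forming bile ducts, PROX1 is needed for hepatoblasts to migrate into the surrounding tissue, and TBX3 supports the hepatocyte over the biliary fate. At this stage the liver is also the main site of blood formation, and hepatoblasts share the tissue with a large erythroid population. Hepatoblasts already make secreted proteins such as alpha-fetoprotein and apolipoproteins, whereas enzymes of the urea cycle, amino acid breakdown and bile acid synthesis build up later.

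Positions are those of GRCm39. *Hnf4a* (ENSMUSG00000017950) is at chr2:163348728-163414830 on the forward strand with 10 exons, and *Cebpa* (ENSMUSG00000034957) at chr7:34818718-34821353 on the forward strand with 1 exon. *Foxa1* (ENSMUSG00000035451) is at chr12:57587414-57593702, *Foxa2* (ENSMUSG00000037025) at chr2:147884797-147889005 and *Foxa3* (ENSMUSG00000040891) at chr7:18747209-18757471, each on the reverse strand with 2 exons. *Onecut1* (ENSMUSG00000043013) is at chr9:74769118-74800594 on the forward strand, *Prox1* (ENSMUSG00000010175) at chr1:189850232-189904637 on the reverse strand and *Tbx3* (ENSMUSG00000018604) at chr5:119806298-119822797 on the forward strand. Their canonical transcripts run from 2045 bases in *Foxa3* to 8210 bases in *Prox1*.

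The stretches just upstream of the transcription starts are shown because factors of this network are known to bind such stretches. No binding was measured here. RefSeq starts (GRCm38.p6 table) were matched for 7 of the 8 factors, with 11 starts in all, and *Tbx3* had none in the table. The sequences were placed on GRCm39 by exact match, and each had 1 match. The stretches of *Hnf4a* at its upstream start (chr2:163348527-163348776, forward strand), of *Foxa2* at its start 3 (chr2:147887385-147887634, reverse strand), of *Foxa3* (chr7:18757465-18757714, reverse strand) and of *Cebpa* (chr7:34818468-34818717, forward strand) are given first. Those of the target genes *Alb* (chr5:90608479-90608728, forward strand) and *Afp* (chr5:90638323-90638572, forward strand) follow for comparison. Each runs 5′ to 3′ on the gene's strand for the 250 bases before the start, and capitals mark the motif matches named after the sequences.
Hnf4a, upstream start: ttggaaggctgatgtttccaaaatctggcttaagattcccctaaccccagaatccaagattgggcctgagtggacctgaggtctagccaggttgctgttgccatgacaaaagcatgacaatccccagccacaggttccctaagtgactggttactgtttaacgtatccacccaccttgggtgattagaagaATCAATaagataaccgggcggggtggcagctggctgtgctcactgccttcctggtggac
Foxa2, start 3: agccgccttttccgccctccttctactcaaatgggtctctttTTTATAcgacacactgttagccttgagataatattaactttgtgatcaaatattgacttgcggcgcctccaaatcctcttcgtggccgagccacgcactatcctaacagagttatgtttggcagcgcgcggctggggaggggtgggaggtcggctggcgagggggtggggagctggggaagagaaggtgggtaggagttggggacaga
Foxa3: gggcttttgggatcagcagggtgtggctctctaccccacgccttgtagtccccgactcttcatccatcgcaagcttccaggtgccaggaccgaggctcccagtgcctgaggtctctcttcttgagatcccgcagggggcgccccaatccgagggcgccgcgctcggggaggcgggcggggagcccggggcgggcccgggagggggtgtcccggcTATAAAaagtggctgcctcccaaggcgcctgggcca
Cebpa: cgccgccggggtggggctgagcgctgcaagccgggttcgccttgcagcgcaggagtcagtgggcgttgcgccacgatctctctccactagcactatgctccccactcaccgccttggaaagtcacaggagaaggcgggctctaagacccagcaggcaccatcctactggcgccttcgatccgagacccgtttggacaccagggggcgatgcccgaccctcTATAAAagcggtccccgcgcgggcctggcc
Alb: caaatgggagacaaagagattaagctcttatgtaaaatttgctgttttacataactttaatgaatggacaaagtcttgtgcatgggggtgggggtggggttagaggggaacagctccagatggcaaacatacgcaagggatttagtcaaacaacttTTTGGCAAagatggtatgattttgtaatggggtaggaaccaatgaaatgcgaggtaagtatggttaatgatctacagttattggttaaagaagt
Afp: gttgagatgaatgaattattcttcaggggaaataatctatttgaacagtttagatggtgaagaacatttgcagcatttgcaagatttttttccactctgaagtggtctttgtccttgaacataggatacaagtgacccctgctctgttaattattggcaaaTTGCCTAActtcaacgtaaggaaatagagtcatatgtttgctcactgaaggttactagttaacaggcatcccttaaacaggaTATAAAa

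Motifs were searched on both strands as exact letters in the 250 bases, and none of the matches overlapped another. Positions count back from the start, with -1 the base before it, and give the first letter of a match. The ONECUT motif ATTGAT began at -59 before the upstream start of *Hnf4a* and at -213 before another start of *Foxa2*, not printed, and its share was 18.2% among the factors and 11.1% among the 27 stretches of the early hepatic target genes, against 6.72% of the 32851 stretches of all genes. The C/EBP motif TTGCNNAA began at -94 before *Alb* and at -89 before *Afp*, and was present in 11 of the 27 stretches of the early hepatic target genes (40.7%), in none of the 11 of the factors and in 9.56% of all. TATAAA began on the gene's strand at -36 before *Foxa3*, -30 before *Cebpa* and -7 before *Afp*. It lay on the opposite strand, as TTTATA, at -208 before *Foxa2* and -34 before *Prox1*. On either strand it was present in 36.4% of the factor stretches and 22.2% of the target stretches against 12.4% of all. A FOXA motif, TGTTTAC, was present in 1 factor stretch, that of *Foxa1* at -141, in 4 of the 27 target stretches (14.8%) and in 3.17% of all, and the HNF4 motif CAAAGTNCA was in 0 of the 11 factor and 0 of the 27 target stretches, with 1.19% of all holding it. These are matches of letters in a short window and not measured binding.

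The 2 fractions differed in their cells as their labels state, with exceptions that touch the factors. The 11 endothelial markers summed to between 977 and 2023 TPM in LSECs, and to no more than 106.9 TPM (lowest 58.1) in the non-EC fraction. The 12 stellate and mesenchymal markers reached 1197 to 1944 TPM in LSECs but 24.6 to 93.8 TPM in the other fraction, so the CD146+ fraction held RNA of these cells too. Mitochondrial transcripts took 13.9 to 31.5% of TPM in LSECs, against 2.33 to 7.69% for the other fraction. *Chd4* and *Smarca4* (the gene of BRG1) were measured over the whole gene, which a deletion of floxed exons need not lower, and so do not check the genotype labels: in LSECs *Chd4* was 262 ± 20.1 TPM in controls and 215 ± 42.5 TPM in *Chd4-ECko* (SD, n = 3), and *Smarca4* was 146 ± 13.4 TPM in controls and 132 ± 23.5 TPM in *Brg1-ECko* (SD, n = 3). One LSEC library, *Brg1-ECko* replicate 1, stood apart. Its *Hnf4a* was 120.1 TPM against 14.1 to 34.6 TPM in the other 11 LSEC libraries, its *Afp* was 12310 TPM against 1267 to 3513 TPM, and its *Cdh5* (VE-cadherin) was 194 TPM against 249 to 368 TPM. LSEC results that rest on it are given with and without it.

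In the non-EC fraction of control livers, *Hnf4a* was the most abundant of the 8 factors, at 68.4 ± 11.8 TPM (SD, n = 3). *Cebpa* followed at 31.3 ± 6.21 TPM, and *Prox1* at 18.7 ± 5.67 TPM. *Foxa3* was at 14.9 ± 0.540 TPM, *Foxa2* at 13.0 ± 0.627 TPM and *Foxa1* at 8.07 ± 1.86 TPM, so the 3 FOXA genes kept close levels with *Foxa1* the lowest. *Tbx3* was at 11.1 ± 1.87 TPM and *Onecut1* the lowest of all at 6.25 ± 2.24 TPM. Neighbours in this order whose control libraries overlapped were *Prox1* and *Foxa3*, *Tbx3* and *Foxa1*, and *Foxa1* and *Onecut1*, while the steps from *Hnf4a* to *Cebpa*, from *Cebpa* to *Prox1*, from *Foxa3* to *Foxa2* and from *Foxa2* to *Tbx3* showed no overlap of the control libraries. *Hnf4a* and *Cebpa* were first and second by mean in all 8 groups of libraries.

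**Figure D1:**
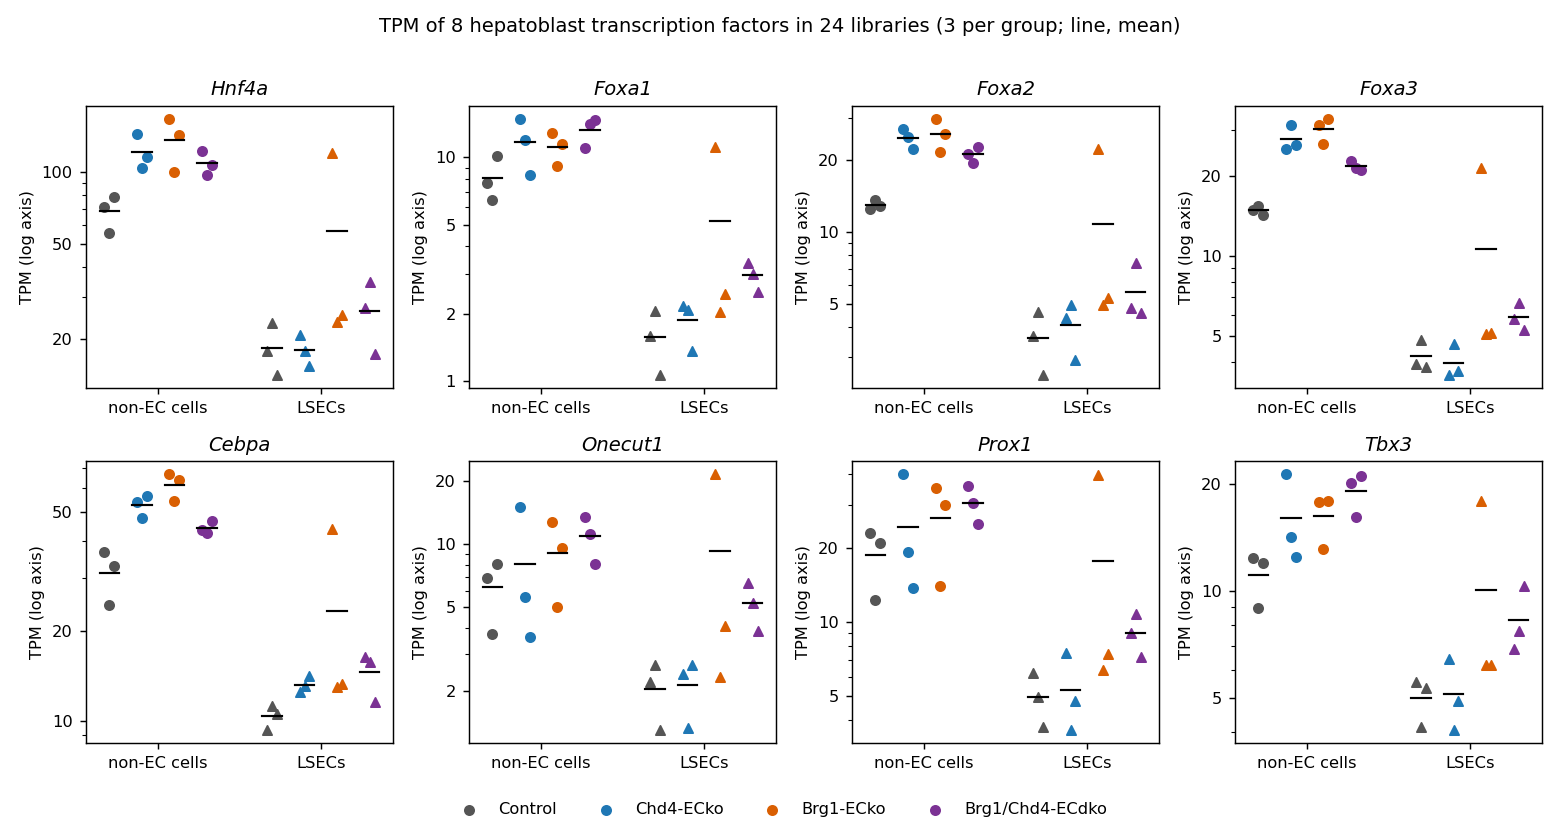
Level of each factor in every library, in TPM on a log axis, for non-EC cells (circles) and LSECs (triangles) of the 4 genotypes, with the mean of 3 libraries as a line. Among non-EC libraries the controls lie lowest for *Hnf4a* (55.5 to 78.6 TPM), *Foxa2*, *Foxa3* and *Cebpa*, and the LSEC library of *Brg1-ECko* replicate 1 (*Hnf4a* at 120.1 TPM) lies above the other 11 LSEC libraries for all 8 factors.

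The comparison of *Chd4-ECko* with control non-EC cells asks whether endothelial deletion of *Chd4* went with a different hepatoblast program. *Hnf4a*, *Foxa2*, *Foxa3* and *Cebpa* rose, and the other 4 factors did not pass the test. *Hnf4a* read 71.2, 55.5 and 78.6 TPM in replicates 1 to 3 of the control and 142.9, 103.3 and 114.6 TPM in *Chd4-ECko*, with no overlap (log2 fold change 0.81, SE 0.20, adjusted p = 0.0318). *Foxa2* read 12.4, 13.7 and 12.8 TPM in controls and 26.8, 24.9 and 22.1 TPM in *Chd4-ECko* (log2 fold change 0.87, SE 0.13, adjusted p = 0.006). Every mutant library lay well above every control library for this gene.
*Foxa3* read 14.98, 15.4 and 14.3 TPM in controls and 25.4, 31.2 and 26.3 TPM in *Chd4-ECko* (log2 fold change 0.84, SE 0.11, adjusted p = 0.00425), again without overlap. *Cebpa* read 36.6, 24.5 and 32.9 TPM in controls and 53.9, 47.7 and 56.7 TPM in *Chd4-ECko* (log2 fold change 0.75, SE 0.14, adjusted p = 0.0119), and its groups did not overlap either. The call of *Hnf4a* was lost when control replicate 1 (adjusted p = 0.0754), control replicate 2 (0.0857), *Chd4-ECko* replicate 2 (0.0535) or *Chd4-ECko* replicate 3 (0.0777) was left out, while its fold change kept between 0.67 and 0.91 on the log2 scale.

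The 4 factors that passed were 4 of 8, where 9.48% of the 12223 genes tested passed in this comparison and 6.17% passed as higher. None of the 8 was a DEG by the added threshold of a log2 fold change above 1, which 0.884% of genes reached. *Tbx3* read 12.4, 8.97 and 12.0 TPM in controls and 21.4, 14.2 and 12.5 TPM in *Chd4-ECko* (log2 fold change 0.47, adjusted p = 0.133), so that its lowest mutant library was just above its highest control. *Foxa1* read 7.68, 6.44 and 10.1 TPM in controls and 14.9, 12.0 and 8.33 TPM in *Chd4-ECko* (log2 fold change 0.47, adjusted p = 0.151) and its groups overlapped. *Onecut1* and *Prox1* spread so widely within the mutants that the test could say little, with log2 fold changes of 0.17 (adjusted p = 0.813) and 0.27 (adjusted p = 0.661). All 3 *Chd4-ECko* libraries lay above all 3 controls for 5 of the 8 factors, as for 15.8% of all genes tested. In a mixed fraction of this kind, more hepatoblasts and more of an RNA per hepatoblast cannot be told apart.

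In *Brg1-ECko* non-EC cells the same 4 factors passed, *Hnf4a*, *Foxa2*, *Foxa3* and *Cebpa*, against the same 3 control libraries. *Hnf4a* read 166, 99.2 and 142 TPM in replicates 1 to 3 (log2 fold change 0.96, SE 0.20, adjusted p = 0.0105), all above the controls. *Foxa2* read 29.6, 21.5 and 25.6 TPM (log2 fold change 0.92, SE 0.13, adjusted p = 0.00188), and *Foxa3* read 31.2, 26.4 and 32.9 TPM (log2 fold change 0.97, SE 0.11, adjusted p = 0.00128). *Cebpa* read 66.8, 54.3 and 63.8 TPM (log2 fold change 0.97, SE 0.14, adjusted p = 0.00229). For each of the 4 genes replicate 2 was the lowest mutant library and still above the highest control. The count of 4 of 8 stands beside 11.7% of all genes called in this comparison, 8.91% as higher, and none of the 8 was a DEG (1.37% of genes). *Foxa1* (12.8, 9.13 and 11.4 TPM, adjusted p = 0.224), *Onecut1* (12.8, 5.001 and 9.58 TPM, adjusted p = 0.521), *Prox1* (35.1, 14.1 and 29.9 TPM, adjusted p = 0.502) and *Tbx3* (17.9, 13.1 and 17.9 TPM, adjusted p = 0.128) did not pass, with log2 fold changes of 0.43, 0.45, 0.42 and 0.51. Of these, *Tbx3* alone had no overlap with the controls, so that 5 of 8 factors had none, against 21.9% of genes. The call of *Hnf4a* was lost without *Brg1-ECko* replicate 1 (adjusted p = 0.0512).

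In *Brg1/Chd4-ECdko* non-EC cells only *Foxa2* passed, at 21.2, 19.5 and 22.6 TPM (log2 fold change 0.66, SE 0.13, adjusted p = 0.0466), beside 0.581% of genes called in this comparison, 0.565% as higher. At an unadjusted p under 0.05 there were 6 of the 8, against 11.7% of all genes. That call was lost when any of the 6 libraries was left out (adjusted p from 0.102 to 0.196). The fold changes of the 8 factors were nonetheless close to each other, from 0.50 for *Cebpa* to 0.75 for *Onecut1* on the log2 scale with a median of 0.66. *Foxa3* read 22.9, 21.5 and 21.1 TPM (log2 fold change 0.52, adjusted p = 0.0589), with all libraries between the control and the *Chd4-ECko* range. *Hnf4a* read 122, 96.4 and 106.7 TPM (0.66, adjusted p = 0.154), and *Cebpa* read 43.7, 42.5 and 46.7 TPM (0.50, adjusted p = 0.129). *Foxa1* read 11.0, 14.1 and 14.7 TPM (0.66, adjusted p = 0.204), and *Tbx3* read 20.1, 16.2 and 21.1 TPM (0.74, adjusted p = 0.129). *Onecut1* read 13.6, 11.2 and 8.09 TPM (0.75, adjusted p = 0.62), and *Prox1* read 35.8, 30.5 and 25.1 TPM (0.70, adjusted p = 0.58).
All 8 factors were higher in each double mutant library than in each control library, as for 16.0% of all genes tested. With the replicate number as a block, 4 factors passed, *Hnf4a* (adjusted p = 0.0203), *Cebpa* (0.0379), *Tbx3* (0.0427) and *Foxa2*, and 2.46% of all genes did.

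Between *Brg1/Chd4-ECdko* and *Chd4-ECko* non-EC cells no factor passed limma's test, and 0 of the 12223 genes did (21.8% had an unadjusted p under 0.05). *Foxa3* had the smallest p among the factors, with all double mutant libraries below all *Chd4-ECko* libraries (log2 fold change -0.32, SE 0.11, unadjusted p = 0.0138, adjusted p = 0.217). *Cebpa* also had no overlap, being lower in the double mutant (-0.25, adjusted p = 0.294), so that 2 of 8 factors lay lower throughout, against 7.12% of genes. *Hnf4a* differed by -0.14 (adjusted p = 0.663) and *Foxa2* by -0.21 (adjusted p = 0.311), while *Onecut1*, *Prox1*, *Tbx3* and *Foxa1* had positive differences of 0.58, 0.44, 0.27 and 0.19 on the log2 scale. Without *Chd4-ECko* replicate 1, *Foxa3* (-0.38, adjusted p = 0.0314) and *Onecut1* (1.09, adjusted p = 0.0436) passed, and 32.4% of all genes then did.

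**Figure D2:**
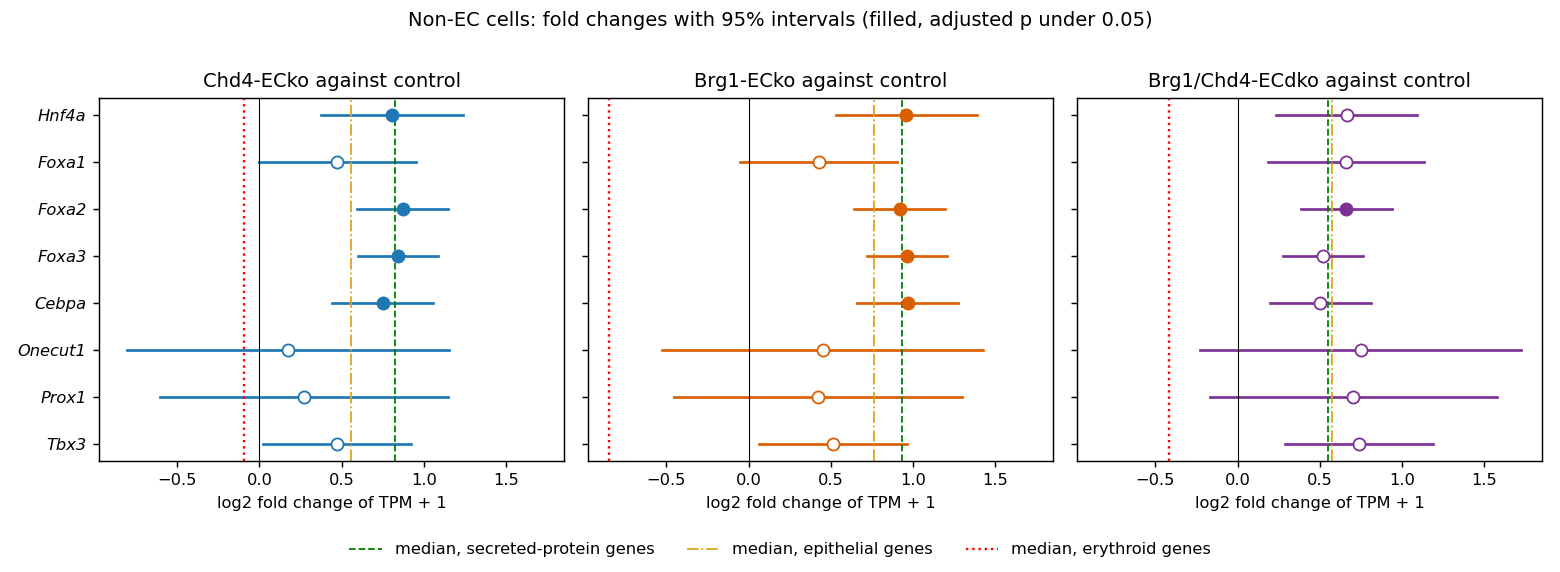
Log2 fold change of each factor against control in non-EC cells of the 3 mutants, with 95% intervals of the limma model (filled symbols, adjusted p under 0.05; vertical lines, medians of the secreted-protein, epithelial and erythroid lists). The filled symbols are *Hnf4a*, *Foxa2*, *Foxa3* and *Cebpa* for both single mutants and *Foxa2* for *Brg1/Chd4-ECdko*, and all 24 estimates are positive.

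The hepatic target genes were tested in the same models. Of 28 early targets, mainly genes of secreted plasma proteins, 26 were tested in non-EC cells. In *Chd4-ECko* 20 of the 26 rose and none fell, with a median log2 fold change of 0.82 beside 0.61 for the 8 factors and 0.01 for all genes. *Apoa2*, an apolipoprotein, read 1096, 1279 and 1314 TPM in controls and 2232, 2217 and 2160 TPM in *Chd4-ECko* (adjusted p = 0.00425), and *Ttr*, the thyroid hormone carrier transthyretin, read 623, 735 and 649.6 TPM against 1274, 1248 and 1078 TPM (log2 fold change 0.84, adjusted p = 0.00816). *Afp*, the fetal albumin-like protein, read 7808, 7857 and 8506 TPM in controls and 15780, 11340 and 11770 TPM in *Chd4-ECko* (log2 fold change 0.67, adjusted p = 0.0461), while *Alb* had a log2 fold change of 0.58 and did not pass (adjusted p = 0.0885). In *Brg1-ECko* 23 of the 26 rose, *Afp* (0.74, adjusted p = 0.0245) and *Alb* (0.75, adjusted p = 0.0435) included, with a median of 0.94 beside 0.72 for the factors. In *Brg1/Chd4-ECdko* 4 of the 26 rose, *Igfbp1* (1.36, adjusted p = 0.0291), *Apoa2*, *Hpx* and *Vtn*, with a median of 0.55 beside 0.66 for the factors, and *Afp* (0.56, adjusted p = 0.209) did not pass.

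Late targets, enzymes and transporters of the mature hepatocyte, differed widely in level. Of 29 with values, 16 were tested in non-EC cells, with *Ass1*, a urea cycle enzyme, at 115.9 TPM ± 6.48 (SD, n = 3) in controls, and the rest did not reach 1 TPM in 3 libraries. *Chd4-ECko* had 4 that rose (*Aldh1l1*, *Hpd* and *Gys2* among them), *Brg1-ECko* had 7 and there was 1 for *Brg1/Chd4-ECdko* (*Gys2*, the liver glycogen synthase, adjusted p = 0.0466), and none fell, with medians of 0.46, 0.67 and 0.40 on the log2 scale. *Hpd*, an enzyme of tyrosine breakdown, read 8.28, 8.48 and 7.43 TPM in controls and 18.8, 15.5 and 24.3 TPM in *Chd4-ECko* (log2 fold change 1.16, adjusted p = 0.0104). The 16 other hepatic transcription factors tested gave 4 higher for *Chd4-ECko*, then 6 with *Brg1-ECko*, and 0 for *Brg1/Chd4-ECdko*, none lower, with medians of 0.47, 0.55 and 0.47.

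Of 13 tested genes that mark the hepatoblast as an epithelial cell, *Chd4-ECko* had 5 that rose and *Brg1-ECko* had 6, with 0 for *Brg1/Chd4-ECdko* and none that fell, with medians of 0.56, 0.76 and 0.57. *Krt18*, a keratin, read 108, 100.4 and 102.7 TPM in controls and 192, 165 and 191 TPM in *Chd4-ECko* (log2 fold change 0.81, adjusted p = 0.006). *Dlk1*, a surface marker of hepatoblasts, read 316, 247 and 293 TPM in controls and 571, 498 and 466 TPM in *Chd4-ECko* (log2 fold change 0.84, adjusted p = 0.00734). *Epcam*, an epithelial adhesion molecule, had log2 fold changes of -0.15 and -0.02 in *Chd4-ECko* and *Brg1-ECko* and did not pass (adjusted p = 0.706 and 0.974). Among 5 tested bile duct genes none passed in *Chd4-ECko* or *Brg1/Chd4-ECdko*, and *Sox9* (0.64, adjusted p = 0.0177) was among the 2 that rose in *Brg1-ECko*.

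Blood and stromal markers in the same libraries were as follows. The isolation protocol of the study lysed red blood cells before the fractions were separated, so erythroid values are of RNA left after lysis. Of 11 erythroid markers, *Tfrc* and *Ermap* fell in *Chd4-ECko*, 3 fell with *Brg1-ECko*, these 2 among them, and 0 passed for the double mutant, with medians of -0.09, -0.85 and -0.42 on the log2 scale. Their summed level was 3407 to 11690 TPM for controls, 3763 to 12480 TPM for *Chd4-ECko*, 2161 to 4650 TPM for *Brg1-ECko*, and lastly 3345 to 6295 TPM for the double mutant, and these ranges overlapped. Stellate and mesenchymal markers summed to 24.6 to 55.7 TPM in controls and to 44.7 to 93.8, 42.2 to 68.1 and 40.2 to 55.2 TPM in the 3 mutants, and 1 of 9 tested rose, *Dcn* in *Chd4-ECko*. Endothelial markers summed to 58.1 to 84.7 TPM in controls and to 78.7 to 80.5, 76.0 to 106.9 and 77.1 to 92.4 TPM in the mutants, with none of 8 tested called. None of 10 myeloid and none of 6 megakaryocyte markers passed, and of 3 lymphatic markers *Mmrn1*, which platelets also hold, fell in *Chd4-ECko* (-1.44, adjusted p = 0.0308). The part of these values in the higher TPM of the factors was not tested.

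Target genes were then read relative to the factors in each library, as the difference of the mean log2(TPM + 1) of a list and that of the 8 factors. A change in the share of hepatoblast RNA alone scales a list and the factors alike only where the RNA of both comes from hepatoblasts, apart from the added 1 TPM. That was not tested. In control LSECs the epithelial genes *Dlk1* and *Gpc3* were at 98.1% and 131% of the non-EC level, against a median of 27.99% for the factors. For early targets this difference was 3.69 to 4.06 in control non-EC libraries, 3.84 to 4.19 with *Chd4-ECko*, 3.94 to 4.06 for *Brg1-ECko*, then 3.58 to 3.87 for the double mutant, and each mutant range overlapped that of the controls. The ratio of *Afp* to *Hnf4a* TPM read 109.7, 142 and 108 in controls, 110.4, 109.8 and 103 for *Chd4-ECko*, 99.95, 106 and 98.7 for *Brg1-ECko*, then 112, 110.1 and 107 for the double mutant. The highest of these 12 ratios, that of control replicate 2, was 1.43 times the lowest. For *Afp* and the other 7 factors this spread ran from 1.46 times (*Foxa2*) to 3.44 times (*Onecut1*), and over all 208 pairs of a factor and a tested early target its median was 2.02, so that the pair, chosen after its values were seen, is among the closer ones and does not stand for the rest.

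For late targets the difference was -2.05 to -1.68 in controls, -2.40 to -1.86 for *Chd4-ECko*, -2.29 to -2.06 for *Brg1-ECko*, then -2.40 to -2.30 for the double mutant, so that the last 2 lay below the controls without overlap. Many late genes were near 0 TPM, where the added 1 TPM hides a change. Over the 16 tested late genes alone, the difference was -0.47 to -0.11 in controls, -0.37 to -0.25 in *Brg1-ECko*, which now overlapped the controls, and -0.65 to -0.48 in *Brg1/Chd4-ECdko*, which did not. With 0.1 TPM added in place of 1, the ranges of controls (-0.62 to -0.23) and *Brg1/Chd4-ECdko* (-0.80 to -0.61) met. For epithelial genes the difference was -0.23 to -0.04 in controls and -0.40 to -0.28 in *Brg1/Chd4-ECdko*, again without overlap, and the ranges of *Chd4-ECko* (-0.42 to -0.14) and *Brg1-ECko* (-0.30 to -0.13) overlapped the controls. All 16 listed epithelial genes entered this score, *Spint1*, *Cldn3* and *Cldn6* near 0 TPM among them, and it was not repeated without them. No p is given for these scores.

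**Figure D3:**
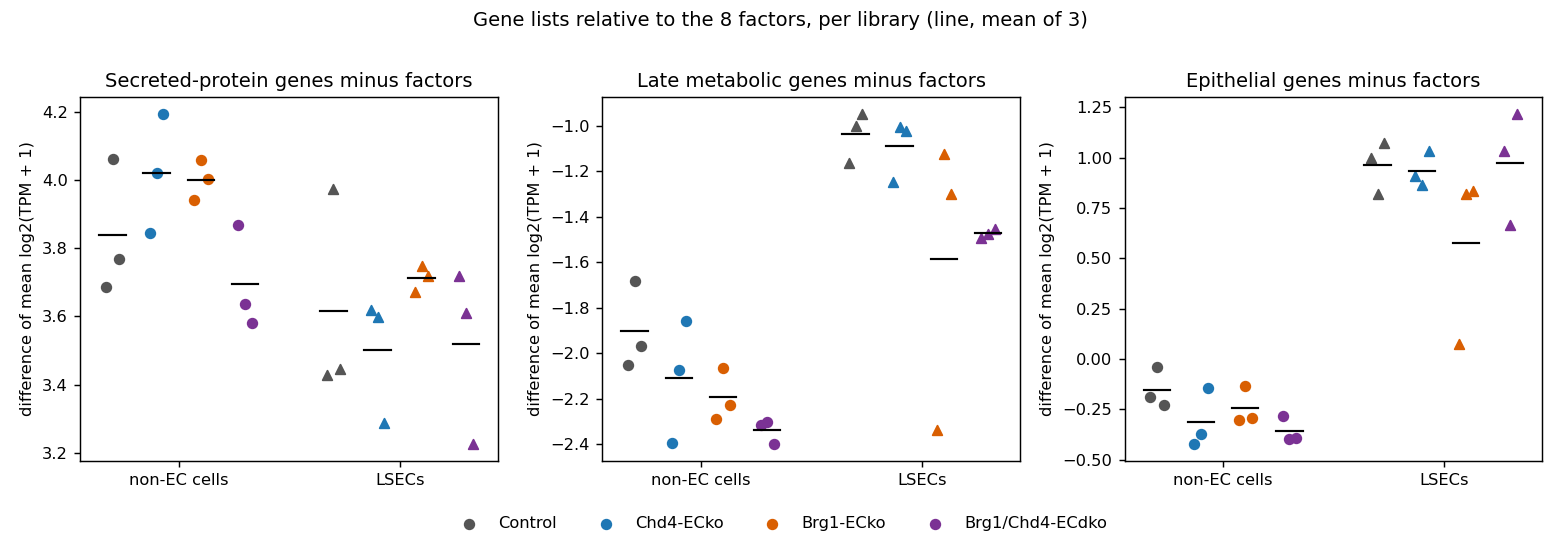
Mean log2(TPM + 1) of 3 gene lists minus that of the 8 factors, per library, for non-EC cells (circles) and LSECs (triangles), with the mean of 3 libraries as a line. In non-EC cells the secreted-protein genes of all genotypes lie between 3.58 and 4.19 with overlap of each mutant and the controls, and the late metabolic genes of *Brg1/Chd4-ECdko* (-2.40 to -2.30) lie below the controls (-2.05 to -1.68).

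The tests of the factors were repeated on values expressed relative to hepatoblast genes. Relative to the epithelial list, 2 factors passed in *Chd4-ECko*, *Hnf4a* (log2 difference 0.38, adjusted p = 0.0481) and *Foxa2* (0.45, adjusted p = 0.0382), 0 passed for either *Brg1-ECko* or the double mutant, with medians of 0.19, 0.10 and 0.22. On that scale 36.8%, 54.2% and 0.0% of all genes were called. The reference was the mean of all 16 listed genes. Among them *Spint1*, *Cldn3* and *Cldn6* were too low to be tested (0.109, 0.184 and 0.221 TPM in control non-EC cells). The added 1 TPM hides changes of such genes, and the calls were not repeated without them. Relative to the early target list 0 factors passed in any mutant, with medians of -0.15, -0.15 and 0.16 and with 73.3%, 79.9% and 0.0491% of all genes called. *Hnf4a*, *Foxa2* and *Foxa3* kept positive differences under both references in all 3 mutants, but at most 0.11 in *Chd4-ECko* and 0.10 in *Brg1-ECko* relative to the early targets, and *Onecut1* and *Prox1* turned negative in *Chd4-ECko* and *Brg1-ECko* under both. The rise of the factors in *Chd4-ECko* and *Brg1-ECko* was measured against the whole library. The early target list itself rose in these 2 mutants, so factors that rose with it show no difference relative to it. The lack of calls on that scale therefore cannot tell more hepatoblasts from more RNA per hepatoblast.

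In non-EC cells *Onecut1* and *Prox1* had the largest ratios between the highest and the lowest replicate of the 8 factors in each of the 4 genotypes. Within *Chd4-ECko* non-EC cells *Onecut1* read 15.1, 5.60 and 3.62 TPM, a ratio of 4.16 between the highest and the lowest library, and *Prox1* read 39.9, 19.3 and 13.7 TPM, a ratio of 2.90. *Foxa2* and *Cebpa* in the same 3 libraries had ratios of 1.21 and 1.19. The 2 genes have the longest transcripts of the 8 factors, of 5573 and 8210 bases, with *Tbx3* next at 5151 bases. A long-transcript index was taken per library as the median log2 deviation from the mean of 12 libraries for the 1943 genes with transcripts of 6000 bases or more, minus that for the 2708 genes under 2000 bases. It read 0.23, -0.04 and 0.24 in controls, 0.24, -0.32 and -0.57 for *Chd4-ECko*, 0.02, -0.30 and -0.05 for *Brg1-ECko*, then 0.23, 0.26 and 0.09 for the double mutant. In all 4 genotypes the library with the lowest index also had the lowest *Onecut1* and the lowest *Prox1*, which held in 3 of 4 for *Foxa1* and *Tbx3* and in 2 of 4 for *Hnf4a*, *Foxa2*, *Foxa3* and *Cebpa*. At the other end the 2 genes did not stand apart, since the library with the highest index had the highest *Onecut1*, *Hnf4a* and *Foxa1* in 3 of 4 genotypes, *Prox1* and *Foxa2* in 2, *Cebpa* and *Tbx3* in 1 and *Foxa3* in 0.
With the index as a covariate all 8 factors passed in each mutant, with medians of 0.91, 0.99 and 0.62 and with 14.8%, 24.1% and 5.6% of all genes called. *Onecut1* then had a log2 difference of 1.08 (adjusted p = 0.00271) and *Prox1* of 1.06 (adjusted p = 0.00384) in *Chd4-ECko*. The index was computed from the same libraries and its covariate was added after the data were seen, and whether it marks RNA state, library preparation or cell content was not tested.

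**Figure D4:**
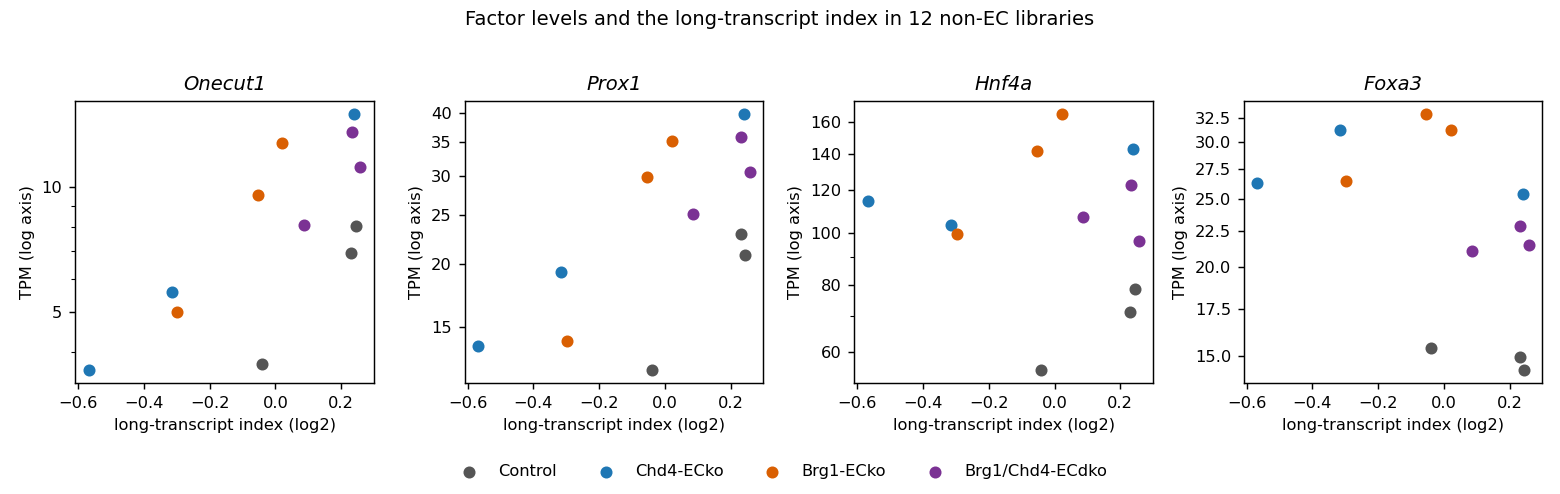
TPM of *Onecut1*, *Prox1*, *Hnf4a* and *Foxa3* (log axis) against the long-transcript index (log2) in the 12 non-EC libraries, coloured by genotype. *Onecut1* and *Prox1* are low in the *Chd4-ECko* libraries with an index of -0.57 and -0.32, whereas *Foxa3* in the same libraries (26.3 and 31.2 TPM) stays above all controls.

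The factors were also present in the LSEC fraction at lower levels. In controls all 8 were higher in non-EC cells, by 1.01 for *Tbx3* to 1.85 for *Hnf4a* on the log2 scale (8 of 8 called, adjusted p at most 0.0431), in a comparison where 67.1% of all genes were called, 35.8% as higher in non-EC cells. *Onecut1* had the largest of these p-values and lost its call when control LSEC replicate 1 or 3, or control non-EC replicate 1 or 3, was left out (adjusted p from 0.0695 to 0.135). Among all alternatives that kept its direction the call was lost in 7 (adjusted p from 0.0551 to 0.135). The control LSEC level was 19.4% of the non-EC level for *Foxa1*, 26.9% for *Hnf4a*, 33.1% for *Cebpa* and 45.02% for *Tbx3*, with a median of 27.99% over the 8 factors. The 26 early targets of at least 5 TPM in non-EC cells gave 16.5 to 38.8% with a median of 28.3%, close to that of the factors. The epithelial list was mixed, its 10 genes of at least 5 TPM in non-EC cells lying between 25.5% and 246.6% of the non-EC level with a median of 50.9%. Of these, 4 lay within the range of the factors (*Cldn1* at 25.5%, *Cdh1* at 26.2%, *Anpep* at 32.9% and *Met* at 37.9%), and the other 6 lay above it, among them *Krt18* at 48.5%, *Krt8* at 53.4%, *Dlk1* at 98.1% and *Gpc3* at 131%. Relative to the epithelial list 7 of 8 factors differed between fractions, as did 48.0% of all genes. Relative to the early target list 0 of 8 did, while 83.9% of all genes differed, and the lowest adjusted p was that of *Tbx3* (log2 difference -0.76, adjusted p = 0.0752).
*Hnf4a* in control LSECs read 17.8, 23.3 and 14.1 TPM, *Cebpa* 9.31, 11.3 and 10.6 TPM and *Prox1*, which lymphatic endothelium also expresses, 6.18, 4.96 and 3.73 TPM. The order was headed by *Hnf4a* and *Cebpa* without overlap, and the other 6 factors, between 1.57 and 5.0 TPM by mean, each overlapped their neighbour.

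With all libraries no factor passed in LSECs of any mutant by limma's test. In *Chd4-ECko* LSECs the log2 fold changes lay between -0.07 (*Foxa3*) and 0.33 (*Cebpa*), with 0 at an unadjusted p under 0.05 (6.49% of genes) and 0.707% of all genes called. *Cebpa* read 12.6, 13.1 and 14.1 TPM, above the 3 controls, the only one of 8 factors without overlap (8.7% of genes), and without the LSEC library of *Brg1-ECko* replicate 1 its unadjusted p was 0.0488 (adjusted p = 0.587). In the same *Chd4-ECko* LSEC libraries 9 of 10 myeloid markers also lay above all controls. The part of myeloid cells in the *Cebpa* level was not tested. In *Brg1-ECko* LSECs 0 factors passed the adjusted threshold and 8 of 8 had an unadjusted p under 0.05 (9.68% of genes, with 0.0223% called after adjustment), with log2 fold changes of 0.73 to 1.28. All 3 libraries lay above the controls for 6 of 8 factors, against 10.9% of genes, and the size of the fold changes rested on replicate 1. *Hnf4a* read 120.1, 23.5 and 25.1 TPM, *Onecut1* 21.6, 2.31 and 4.07 TPM and *Tbx3* 17.9, 6.21 and 6.18 TPM, replicate 1 being 2.90 (*Tbx3*) to 8.18 (*Onecut1*) times the median of the other 11 LSEC libraries. Without that library the 8 log2 fold changes were 0.24 (*Foxa3*) to 0.46 (*Onecut1*), and 0 factors passed. With all libraries the 11 endothelial markers had log2 fold changes of -0.83 (*Lyve1*) to -0.19 (*Pecam1*) in *Brg1-ECko* LSECs, and none passed. The part of this in the TPM of the factors was not tested.
In *Brg1/Chd4-ECdko* LSECs the log2 fold changes were 0.41 (*Foxa3*) to 1.04 (*Onecut1*), with 0 at an unadjusted p under 0.05 (12.1% of genes) and 0.87% of all genes called. *Onecut1* read 6.54, 5.27 and 3.87 TPM against 2.19, 2.64 and 1.29 TPM in controls (adjusted p = 0.427, and 0.0487 once the LSEC library of *Brg1-ECko* replicate 1, which shares the model's spread, was left out), and 6 of 8 factors had no overlap with the controls, against 20.8% of genes. Without that library 1 factor passed, *Onecut1*, and 7 of 8 had an unadjusted p under 0.05, beside 2.1% and 17.3% of all genes. Against *Chd4-ECko* LSECs 0 factors passed and 0 had an unadjusted p under 0.05 (10.4% of genes), with 0.0372% of genes called. There 4 of 8 factors were higher without overlap, against 13.6% of genes, and without *Brg1-ECko* replicate 1 still 0 passed, with 6 at an unadjusted p under 0.05 (14.4% of genes).

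Whether a mutant's effect differed between the fractions was tested with interaction terms, 3 for each factor. Of the 24 tests 0 passed after adjustment in limma's model and 1 had an unadjusted p under 0.05, *Foxa3* in *Chd4-ECko* (non-EC minus LSEC effect 0.91 on the log2 scale, SE 0.43, unadjusted p = 0.0464, adjusted p = 0.254). Across all genes 1.02% were called for *Chd4-ECko*, 1.04% for *Brg1-ECko* and 0.0581% for the double mutant. These tests share their spread with the LSEC library of *Brg1-ECko* replicate 1. With that library left out, *Foxa3* passed in *Chd4-ECko* (0.91, SE 0.18, adjusted p = 0.0126), 1 of 8 factors beside 2.67% of all genes, and 0 factors passed in *Brg1/Chd4-ECdko* (0.24% of genes). With LSEC and non-EC libraries of 1 genotype and number also paired in the model, *Foxa3* again passed (SE 0.16, adjusted p = 0.0203, 2.3% of genes). Pairing with all libraries kept left it at an adjusted p of 0.181. Within these pairs, taken as embryos, the LSEC level of *Foxa3* was 26.3, 31.3 and 26.7% of the non-EC level in controls and 14.0, 14.9 and 13.98% in *Chd4-ECko*, without overlap. *Hnf4a* was at 24.99, 41.9 and 17.96% in controls and 14.6, 17.2 and 13.4% in *Chd4-ECko*, also without overlap, and did not pass in any of these models (adjusted p = 0.153 without the library). With *Tbx3*, 3 of 8 factors were lower without overlap on this measure, beside 13.9% of all genes, 19 of 26 early targets (*Ttr* and *Apoa1* among them, while *Afp* overlapped) and 7 of 13 epithelial genes (*Krt8* and *Krt18* among them), and the other 5 factors overlapped the controls. Of other lists, 5 of 11 stellate and mesenchymal markers were lower too. In turn 5 of 11 erythroid and 4 of 10 myeloid markers were higher, beside 13.2% of all genes.

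The genes whose non-EC pattern was most like each factor were found by Pearson r of log2(TPM + 1) over the 12 libraries among 9440 genes of at least 5 TPM on average. *Tspan7* (r = 0.99), *Myrf* (0.988) and *Gldc* (0.986) were most like *Hnf4a*, and *Efnb1* (0.988), *Nherf1* (0.987) and *Preb* (0.987) most like *Cebpa*. *Bex3* (0.98), *Ppt2* (0.972) and *Snap47* (0.964) followed *Foxa3*, *Usp18* (0.967), *Hgd* (0.966) and *Aldh4a1* (0.966) followed *Foxa2*, and *Pfkfb3* (0.926), *Wdr89* (0.911) and *Cyp4f15* (0.902) followed *Foxa1*. *Onecut1* was most like *Abca8b* (0.988), *Arhgap42* (0.987) and *Raph1* (0.987), and *Prox1* most like *Raph1* (0.992), *A1cf* (0.987) and *Lifr* (0.985). *Sh3pxd2a* (0.97), *Hs3st3b1* (0.969) and *Zcchc14* (0.946) were most like *Tbx3*. Of the 6 places beside *Onecut1* and *Prox1*, all but that of *A1cf* (3390 bases) went to genes with long transcripts, from 7443 bases in *Abca8b* to 10216 in *Raph1*. The libraries share genotype, cell content and the long-transcript index, so these values are descriptions.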

How the data were processed

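RNA of LSECs and non-EC liver cells was sequenced in 24 libraries, 3 per fraction and genotype. TPM per gene, as deposited, came from the authors' alignment of reads to GRCm39, also named mm39 in the processing notes, with CLC Genomics Workbench. The counting of reads that match several genes is not given in the sources used here. The TPM of each library sum to 1000000, so depth and counting error are unknown. The 8 deposited columns of group means were not used, nor were the authors' comparisons. No pair of libraries was identical, and replicates correlated at 0.981 to 0.996. Replicates are separate embryos per the study, and p-values measure the spread between them.

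Tests used limma 3.58.1 (R 4.3.3) on log2(TPM + 1) with a variance trend, in 1 model per fraction and 1 of all libraries for fraction differences and interactions. A gene was tested if 3 or more libraries reached 1 TPM (13444 in LSECs, 12223 in non-EC cells, 13775 in all). P-values are two-sided and adjusted by Benjamini-Hochberg over all genes tested, with a threshold of 0.05. Fold changes on this scale understate changes of low genes. DEGs also had a log2 fold change above 1. The comparisons with control share the control libraries. Tables and figures used python 3.11.15, numpy 2.4.6, pandas 2.3.3 and matplotlib 3.10.9, and the tests were checked on simulated data.

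The 8 factors and the gene lists (early and late hepatic targets, other hepatic factors, epithelial, bile duct, endothelial, lymphatic, mesenchymal, erythroid, myeloid and megakaryocyte markers) were chosen with earlier results of these data known. The rule for named genes took all 8 factors in a comparison, from each list up to 4 genes with the smallest p-value, *Afp*, *Alb*, *Ttr* and *Cps1*, and the 3 genes most like each factor by correlation. The text names fewer: in several comparisons the factors are given by count and range with only some of them named, and some other genes of the rule are not reported here. Some genes of the epithelial list were named after their values were seen.

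Within a genotype, LSEC and non-EC libraries sharing a number deviated together (correlations of deviations 0.141 to 0.495 in 12 of 12 pairs), which pairs the fractions of an embryo. Alternatives were a pseudocount of 0.1 TPM, no filter, quantile normalization, TPM without mitochondrial genes, the epithelial and early target references, the long-transcript covariate, a replicate block, no variance trend and leaving out each library, with the LSEC library that stands apart also left out of models of other genotypes.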

Additional observations from a re-analysis of the deposited data

How the results depend on the processing

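The counts of factors called moved with some settings. In *Brg1/Chd4-ECdko* non-EC cells the count of 1 fell to 0 without the filter (0.206% of genes called), with quantile normalization (0.589%), without mitochondrial genes (0.219%), without the variance trend (0.442%) and under either hepatoblast reference, was 0 to 0 when 1 library was left out, and came to 4 with the replicate block and 8 with the long-transcript covariate. In *Chd4-ECko* the count of 4 became 2 under the epithelial reference, 0 under the early target reference and 8 with the covariate, in *Brg1-ECko* 0, 0 and 8, and the fraction difference fell from 8 to 0 under the early target reference. Leaving out 1 library gave 3 to 4, 3 to 4 and, between *Brg1/Chd4-ECdko* and *Chd4-ECko*, 0 to 2 factors, and 7 to 8 for the fraction difference. With the replicate block the other counts of factors were unchanged. Across genotypes 13 of 18 LSEC pairs and 10 of 18 non-EC pairs sharing a number correlated over 0.1. The early target reference and the covariate were added after the data were seen. Leaving LSEC *Brg1-ECko* replicate 1 out of the models that share its spread, also added then, took the count from 0 to 1 in *Brg1/Chd4-ECdko* LSECs (*Onecut1*) and from 0 to 1 for the *Chd4-ECko* difference between fractions (*Foxa3*), there also 1 with the replicate block, which pairs the fractions of a genotype by replicate number. The cause of these changes was not tested.

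Directions turned under the epithelial reference in *Chd4-ECko* non-EC cells (*Onecut1* -0.25, *Prox1* -0.15), in *Brg1-ECko* (*Foxa1* -0.19, *Onecut1* -0.16, *Prox1* -0.19, *Tbx3* -0.099) and in *Brg1/Chd4-ECdko* LSECs (*Hnf4a* -0.16, *Foxa2* -0.099, *Foxa3* -0.21, *Cebpa* -0.18). Under the early target reference they turned in *Chd4-ECko* (*Foxa1* -0.29, *Cebpa* -0.015, *Onecut1* -0.59, *Prox1* -0.49, *Tbx3* -0.29), *Brg1-ECko* (*Foxa1* -0.44, *Onecut1* -0.41, *Prox1* -0.44, *Tbx3* -0.35), *Brg1/Chd4-ECdko* (*Cebpa* -0.0040) and the fraction difference (*Foxa2* -0.14, *Foxa3* -0.15, *Cebpa* -0.27, *Onecut1* -0.54, *Prox1* -0.061, *Tbx3* -0.76). With 1 library left out, *Onecut1* in *Chd4-ECko* ran from -0.34 to 0.56, *Prox1* from -0.14 to 0.59 and *Foxa1* between *Brg1/Chd4-ECdko* and *Chd4-ECko* from -0.020 to 0.36. Of 829 values under all alternatives 735 kept their direction and side of the threshold, 39 lost and 25 gained a call, and 30 turned. With quantile normalization *Foxa1* (adjusted p = 0.0472) and *Tbx3* (0.049) also passed in *Chd4-ECko* non-EC cells, beside 15.8% of genes. Between *Brg1/Chd4-ECdko* and *Chd4-ECko* non-EC cells 4 genes (0.0229%) were called without the filter and none of the factors. Depth is unknown and 3 libraries per group limit every test.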

Other observations

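*Cps1*, which encodes the first enzyme of the urea cycle and was too low in non-EC cells to be tested, was higher in *Chd4-ECko* replicates 2 and 3 of either fraction than in its other libraries. In non-EC cells it read 0.533, 5.37 and 4.16 TPM in *Chd4-ECko* replicates 1 to 3 and 0.401, 0.456 and 0.404 TPM in controls, and at most 0.772 TPM in the other mutants. In LSECs of the same replicates it read 0.0872, 1.08 and 1.13 TPM, against at most 0.482 TPM in the other 9 LSEC libraries. Of the 3 *Chd4-ECko* non-EC libraries these were also the 2 with a long-transcript index below 0 (-0.32 and -0.57), and 3 non-EC libraries of other genotypes had an index below 0 without higher *Cps1*. The part of the index in the *Cps1* level was not tested.

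*Cebpb*, a C/EBP factor of the acute-phase response and of myeloid cells, was the only one of the 18 other hepatic transcription factors tested in *Chd4-ECko* LSECs that passed. It read 18.8, 16.9 and 18.3 TPM in controls and 31.8, 37.6 and 38.5 TPM in *Chd4-ECko* (log2 fold change 0.96, adjusted p = 0.00337, limma), and 30.8, 30.2 and 36.0 TPM in *Brg1/Chd4-ECdko* (0.81, adjusted p = 0.0105). In *Brg1-ECko* LSECs it read 25.3, 31.0 and 26.2 TPM, also above the 3 controls, and did not pass (0.58, adjusted p = 0.203). Of 10 myeloid markers in the same *Chd4-ECko* libraries 3 rose, *Cx3cr1*, *Fcer1g* and *Spi1*, beside 0.707% of all genes called. Their list had a summed level of 589.9 to 989 TPM against 440.5 to 548 TPM in controls. None of the 10 passed in the other mutants, where 6 in each had an unadjusted p under 0.05 and the sum was 448 to 687 TPM in *Brg1-ECko* and 518 to 810.5 TPM in *Brg1/Chd4-ECdko*. The part of these markers in the *Cebpb* level was not tested.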
